A study of Homo sapiens with 9 samples.

Results

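The genes described here are 40 genes of the G2 phase and of mitosis, of 19775 genes measured in HT29 cells, a human colon cancer cell line. They were chosen by symbol, and each was read from the brightest of its probe sets that has 1 gene symbol, by mean log2 intensity over the 9 arrays. All 40 were measured. In 22 of them several probe sets were available, and the 40 genes had 82 in all. The cells were left untreated (Control), exposed for 24 h to 1.68 µg/mL of caffeic acid (CA), a phenolic acid found in coffee, or exposed for 24 h to 7 µg/mL of instant caffeinated coffee (ICC). Each group had 3 Affymetrix HG-U133 Plus 2.0 arrays, labelled with replicate numbers 1 to 3, and an array is named here by both, as in CA 1. The labels do not say what a number marks or whether the replicates were separate cultures, so each p-value reflects the scatter among the arrays alone, which may be technical.

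Entry into mitosis is driven by CDK1 bound to cyclin B, which CDC25 phosphatases switch on and which acts with the polo-like and Aurora kinases. The spindle checkpoint then holds the anaphase-promoting complex (APC/C) in check until every kinetochore is attached, after which securin and cyclin B are destroyed and the cell divides. In cycling cells most of these genes are transcribed together late in the cycle, through factors such as FOXM1, B-MYB and NF-Y, and they are kept low in resting cells by the DREAM complex, which binds a short promoter element called CHR. Their summed transcript level in a culture is therefore widely used as a sign of proliferation.

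Because the genes share this control, their promoters were searched for the letters of the CHR (TTTGAA, and the variant TTCGAA) and of the NF-Y element (CCAAT), on both strands, in RefSeq windows of 250 bases before and 50 bases from the annotated start (GRCh38.p14). A window was found for 33 of the 40 genes, and for the 6 genes with several windows the first listed was used. TTTGAA was present in 22 of the 33 (66.7%) and in 15.2% of all 35116 windows, CCAAT in 26 (78.8%) against 34.6%, and TTCGAA in 2 (6.06%) against 1.45%. The CHR forms cannot overlap each other, and either can share at most 1 letter with CCAAT. Either of the first 2 together with CCAAT was present in 20 of 33 windows (60.6%) against 6.38% of all. In 17 genes TTTGAA began between 70 bases before and 20 bases after the start. Among the 7 genes with a window that differed by replicate number (values further on), TTTGAA was present in 3 (42.9%) and CCAAT in 4 (57.1%), against 19 (73.1%) and 22 (84.6%) of the other 26, and TTCGAA in 2 against 0. In the 1 window searched for each, AURKB, CDC25C and KIF2C of the 7 held neither CHR form, which does not show that these genes lack one. The 7 were picked by calls in these same data, few of which held whichever 1 array was left out. The difference between the 7 and the other 26 was not tested. The 7 stretches shown run from 170 bases before the start through its first 20 bases. They show the usual arrangement (CCNB2, PLK1) the forms in 4 genes whose transcript level differed by replicate number (CDK1, BUB1, NDC80, NUSAP1) and 1 such gene with no match in its window (KIF2C), with every match to the searched letters in capitals, as TTCAAA or ATTGG where the match is on the other strand.
CCNB2 (chr15:59104976-59105165, plus strand): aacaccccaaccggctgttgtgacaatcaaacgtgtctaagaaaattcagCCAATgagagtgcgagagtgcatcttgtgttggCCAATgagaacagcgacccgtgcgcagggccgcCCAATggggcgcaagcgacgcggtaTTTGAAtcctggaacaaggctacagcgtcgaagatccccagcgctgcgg
PLK1 (chr16:23678719-23678908, plus strand): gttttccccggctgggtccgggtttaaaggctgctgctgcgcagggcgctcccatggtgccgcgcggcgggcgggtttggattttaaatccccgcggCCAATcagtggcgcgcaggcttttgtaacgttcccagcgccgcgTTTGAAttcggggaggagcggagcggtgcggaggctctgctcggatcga
CDK1 (chr10:60778161-60778350, plus strand): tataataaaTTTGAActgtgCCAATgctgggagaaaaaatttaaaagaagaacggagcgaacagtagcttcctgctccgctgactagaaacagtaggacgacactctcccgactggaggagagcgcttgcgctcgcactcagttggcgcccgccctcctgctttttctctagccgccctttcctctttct
BUB1 (chr2:110678044-110678233, minus strand): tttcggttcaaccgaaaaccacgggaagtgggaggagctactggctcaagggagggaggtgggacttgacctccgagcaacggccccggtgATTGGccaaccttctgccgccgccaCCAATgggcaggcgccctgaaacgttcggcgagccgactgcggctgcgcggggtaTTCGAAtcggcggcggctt
NDC80 (chr18:2571387-2571576, plus strand): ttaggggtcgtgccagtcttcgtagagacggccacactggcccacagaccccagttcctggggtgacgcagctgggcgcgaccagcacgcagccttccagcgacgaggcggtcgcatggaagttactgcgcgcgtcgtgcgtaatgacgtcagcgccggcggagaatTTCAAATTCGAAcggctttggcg
NUSAP1 (chr15:41332711-41332900, plus strand): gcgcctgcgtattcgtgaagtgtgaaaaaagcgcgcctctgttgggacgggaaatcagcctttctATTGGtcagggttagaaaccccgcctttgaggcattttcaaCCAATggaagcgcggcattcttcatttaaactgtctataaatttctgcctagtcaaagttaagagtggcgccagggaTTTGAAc
KIF2C (chr1:44739667-44739856, plus strand): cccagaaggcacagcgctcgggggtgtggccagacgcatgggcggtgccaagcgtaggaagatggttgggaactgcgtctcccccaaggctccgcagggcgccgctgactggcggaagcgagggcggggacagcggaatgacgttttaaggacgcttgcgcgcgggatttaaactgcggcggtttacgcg
In CCNB2 and PLK1 the CHR letters lie close to the start, downstream of CCAAT. BUB1 carries the TTCGAA form, NDC80 carries both forms side by side with no CCAAT in the window, NUSAP1 has TTTGAA just after the start, and in CDK1 the match lies farther upstream. These are matches of letters, and binding was not measured here.

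All 40 genes were well expressed: each had a mean log2 intensity above that of the median gene (6.46), and 38 were above the upper quartile of genes (8.76). The median intensity of an array was 43.8 to 46.6. Of 13 colon epithelium markers 11 were above the median gene, against 1 of 8 fibroblast, 2 of 5 measured leukocyte and 0 of 5 endothelial markers. In bulk RNA, fewer cells in G2 or mitosis and less of these transcripts per cell cannot be told apart. Precision is limited by having 3 arrays in each group.

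No mitotic gene passed the test in either treatment. Against Control, 0 of the 40 genes passed limma's test over all genes (adjusted p under 0.05) in ICC or in CA, and 0 passed between ICC and CA. The background was the same, with 0% of all genes called in each of the 3 comparisons. With the replicate number as a block, 0 of the 40 passed again, beside 0% of all genes in ICC against Control, 0.0152% in CA against Control and 0.00506% in ICC against CA. The median difference over the 40 genes was +0.05 log2 in ICC (all genes +0.03), with 28 of 40 above 0. In CA it was +0.03 (all genes +0.00), with 27 above 0, and between ICC and CA it was +0.01 (all genes +0.02), with 21 above 0. The comparisons of ICC and of CA with Control share the 3 Control arrays.

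**Figure D1:**
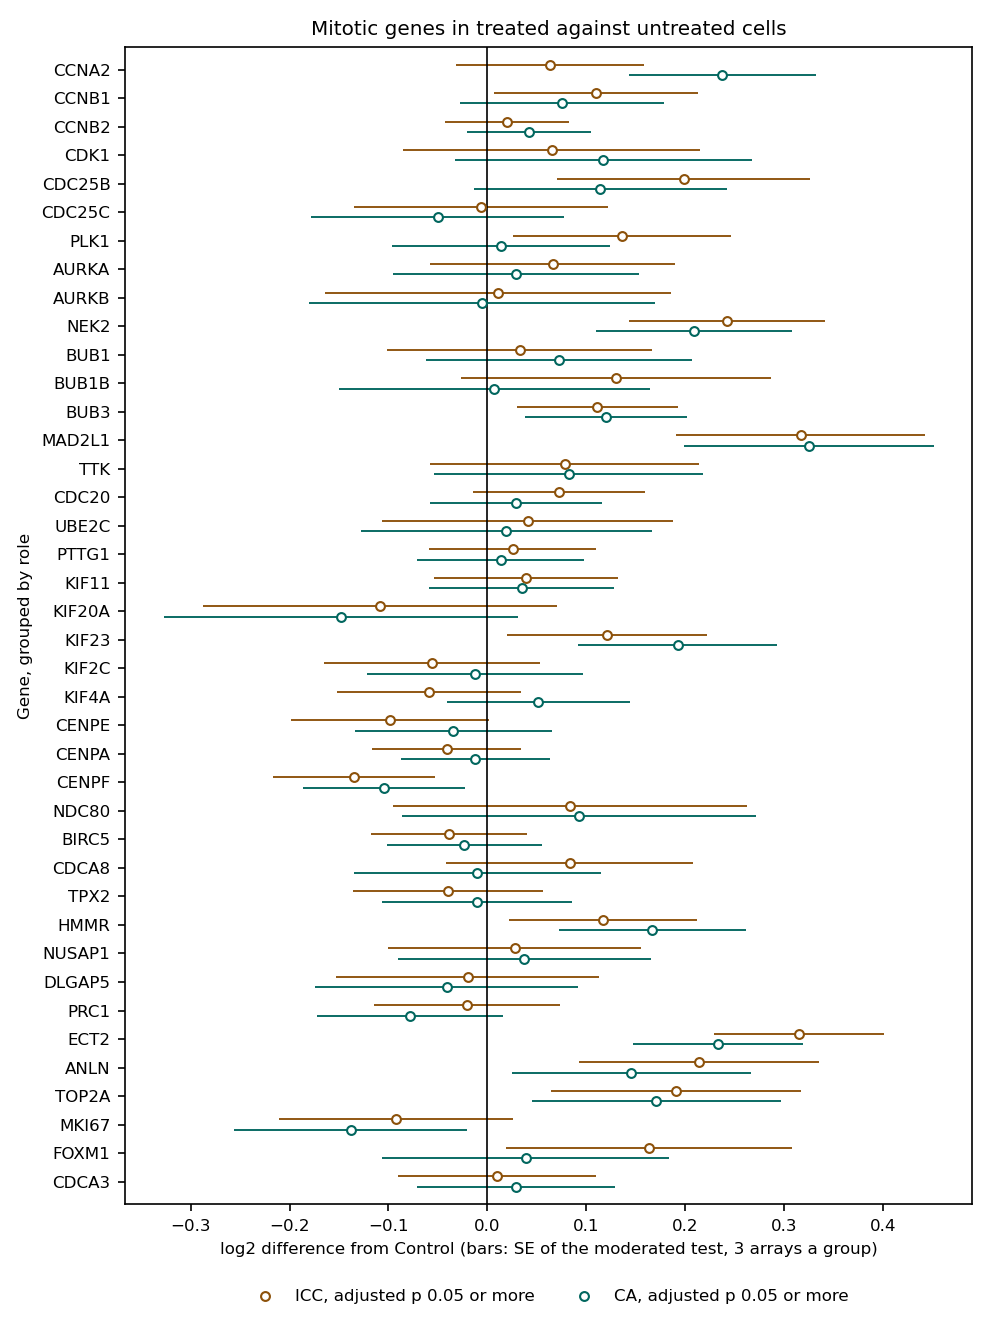
Difference of each mitotic gene from Control on the log2 scale (horizontal axis) in ICC (brown) and CA (green), with genes grouped by role; points are means of 3 arrays against 3, bars are the SE of limma's moderated test, and open points have an adjusted p of 0.05 or more. Every point is open, and MAD2L1 and ECT2 lie farthest to the right. The fit behind the bars left out the replicate number.

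At an unadjusted p under 0.05, 3 of the 40 genes were higher in ICC (5.83% of all genes) and 0 lower (1.9%). In CA there were 3 higher (2.55%) and 0 lower (1.91%), and between ICC and CA 0 higher (2.19%) and 0 lower (0.496%). With the block, 6 were higher in ICC (8.41% of all genes), 4 in CA (4.04%) and 0 between ICC and CA (4.63%), and 0 were lower in each (3.99%, 4.5% and 1.32%). All 3 treated arrays lay above all 3 Control arrays in 1 of the 40 genes in ICC (8.46% of all genes) and in 4 in CA (4.4%), namely CCNA2, MAD2L1, KIF23 and ECT2. They lay below in 0 of 40 in ICC (3.5%) and 0 in CA (3.46%). With 3 arrays against 3, an exact two-sided permutation test of a single gene cannot give a p under 0.1.

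Among the cyclins and their kinase, CCNB1, the cyclin that carries CDK1 into mitosis, stood at 11.81, 11.81 and 11.88 in Control, 12.04, 11.67 and 12.02 in CA and 12.07, 11.87 and 11.88 in ICC for numbers 1 to 3 (log2 intensity). The highest treated arrays were above Control and the lowest, CA 2, was below it, so the groups overlapped. The difference was +0.11 ± 0.103 log2 in ICC (SE, n = 3 arrays a group) and +0.08 ± 0.103 in CA. CDK1 read 11.60, 11.30 and 11.46 in Control, 11.83, 11.42 and 11.46 in CA and 11.83, 11.33 and 11.40 in ICC. Its number 1 array was the highest of each group, and its differences of +0.06 ± 0.150 and +0.12 ± 0.150 were smaller than their SE. CCNB2, the other mitotic B-type cyclin, was nearly level at +0.02 and +0.04. CDC25B, the phosphatase that starts CDK1 activation, stood at +0.20 in ICC and +0.11 in CA, and CDC25C, which amplifies it, at -0.01 and -0.05.

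Of the mitotic kinases, PLK1, the polo-like kinase needed for mitotic entry and spindle assembly, read 9.65, 9.64 and 9.63 in Control, 9.80, 9.52 and 9.64 in CA and 10.03, 9.61 and 9.69 in ICC. Here ICC 1 stood above every other array and the rest of the 3 groups overlapped, with differences of +0.14 ± 0.110 in ICC and +0.01 ± 0.110 in CA. AURKA, the centrosomal Aurora kinase, read 11.40, 11.26 and 11.29 in Control, 11.57, 11.16 and 11.30 in CA and 11.62, 11.27 and 11.24 in ICC. Again the number 1 arrays led each group, and the differences were +0.07 ± 0.124 and +0.03 ± 0.124. AURKB, the kinase of the chromosomal passenger complex, stood at +0.01 and -0.01.

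The proliferation markers differed in sign. MKI67, which encodes the Ki-67 antigen of cycling cells, read 11.33, 10.96 and 11.19 in Control, 11.14, 10.99 and 10.94 in CA and 11.24, 10.86 and 11.11 in ICC. The groups overlapped, with differences of -0.09 ± 0.118 in ICC and -0.14 ± 0.118 in CA. TOP2A, the topoisomerase that untangles sister chromatids, read 11.08, 10.96 and 10.96 in Control, 11.35, 11.07 and 11.10 in CA and 11.49, 11.00 and 11.08 in ICC, higher in 3 of 3 same-numbered pairs in both treatments, at +0.19 ± 0.126 and +0.17 ± 0.126. FOXM1, the transcription factor of the group, read 9.92, 9.92 and 9.79 in Control, 10.21, 9.81 and 9.72 in CA and 10.30, 9.80 and 10.02 in ICC, with ICC 1 and CA 1 above the rest, at +0.16 ± 0.145 and +0.04 ± 0.145. The largest negative differences in ICC were those of CENPF (-0.13), a kinetochore protein, KIF20A (-0.11), the kinesin of the central spindle, and CENPE (-0.10), the kinesin that moves chromosomes to the spindle equator. In CA they were those of KIF20A (-0.15), MKI67 and CENPF (-0.10).

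Apart from ECT2, MAD2L1, NEK2 and CCNA2, the gene farthest above Control was ANLN in ICC (+0.21) and KIF23 in CA (+0.19), and neither passed. Of the checkpoint and APC/C genes, BUB1, TTK, a checkpoint kinase, CDC20, the activator of the APC/C, UBE2C and PTTG1, the securin, lay between +0.03 and +0.08 in ICC and +0.01 and +0.08 in CA, and BUB3 at +0.11 and +0.12. BUB1B stood at +0.13 in ICC and +0.01 in CA. Among the kinesins, KIF23 of the central spindle was at +0.12 and +0.19, KIF11, which pushes the spindle poles apart, at +0.04 and +0.03, and KIF2C at -0.06 and -0.01. CENPA, the histone of centromeres, BIRC5 (survivin) and CDCA8, both of the passenger complex, and NDC80 lay between -0.04 and +0.09 in both. Of the spindle and cytokinesis genes, HMMR was at +0.12 and +0.17 and ANLN at +0.21 and +0.15. TPX2, an activator of AURKA, NUSAP1, DLGAP5 and PRC1, which bundles the central spindle, lay between -0.08 and +0.04. CDCA3 stood at +0.01 and +0.03.

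The 4 genes with the largest moderated t in a comparison with Control were ECT2, MAD2L1, NEK2 and CCNA2. ECT2, the exchange factor that starts the cleavage furrow, read 10.64, 10.91 and 10.82 in Control, 11.02, 11.00 and 11.06 in CA and 11.23, 11.03 and 11.06 in ICC. All treated arrays were above all Control arrays, and Control 1 was the lowest of the 9. It stood at +0.31 ± 0.0857 log2 in ICC (1.24-fold, adjusted p 0.614, limma) and +0.23 ± 0.0857 in CA (adjusted p 0.996). MAD2L1, a checkpoint protein that inhibits the APC/C, read 10.85, 11.31 and 11.19 in Control, 11.56, 11.44 and 11.33 in CA and 11.62, 11.39 and 11.29 in ICC. Control 1 was again far below the other 8 arrays, and ICC 3 lay below Control 2. Its differences were +0.32 ± 0.126 in ICC (adjusted p 0.63) and +0.33 ± 0.126 in CA (adjusted p 0.996).

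NEK2, a centrosome kinase that separates the spindle poles, read 9.48, 9.83 and 9.60 in Control, 9.96, 9.82 and 9.76 in CA and 9.97, 9.80 and 9.87 in ICC. Control 1 and Control 3 were the lowest arrays, Control 2 lay among the treated ones, and the difference in ICC was +0.24 ± 0.0990 (adjusted p 0.63). CCNA2, the cyclin of S phase and G2, read 9.76, 9.96 and 10.00 in Control, 10.26, 10.04 and 10.14 in CA and 9.84, 10.00 and 10.07 in ICC. All CA arrays were above all Control arrays, at +0.24 ± 0.0947 (adjusted p 0.996), and ICC overlapped both groups, at +0.06. Over 18 alternative settings the adjusted p ranged from 0.317 to 0.948 for ECT2, 0.364 to 0.948 for MAD2L1 and 0.373 to 0.948 for NEK2 in ICC. In CA it ranged from 0.523 to 1 for ECT2 and CCNA2, and from 0.529 to 1 for MAD2L1. Without Control 1, MAD2L1 stood at +0.18 in ICC and +0.19 in CA, against +0.32 and +0.33 with it.

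Other probe sets of these 4 genes read differently. For ECT2 they stood at -0.24 and +0.31 in ICC and at -0.13 and +0.24 in CA, the second of them dim and with an SE of 0.464. For MAD2L1 they stood at -0.14 and -0.00 in ICC and at -0.05 and -0.06 in CA. The first of these was nearly as bright as the one used, with a mean log2 intensity of 11.07 against 11.33. The other NEK2 probe set was at -0.16 in ICC, and the other CCNA2 probe set at -0.02 in CA. Of the 42 probe sets of the 40 genes that were not the one used, 14 had the sign of the one used in ICC against Control, 21 in CA against Control and 20 in ICC against CA. Which probe set of a pair reads the gene more faithfully was not tested, and with every probe set tested singly 0 of 82 passed in any treatment comparison, as did 0% of all 54613. The probe sets used put Control 1 lowest in all 4 genes, and the brightest other one put it above its own mean in all 4.

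**Figure D2:**
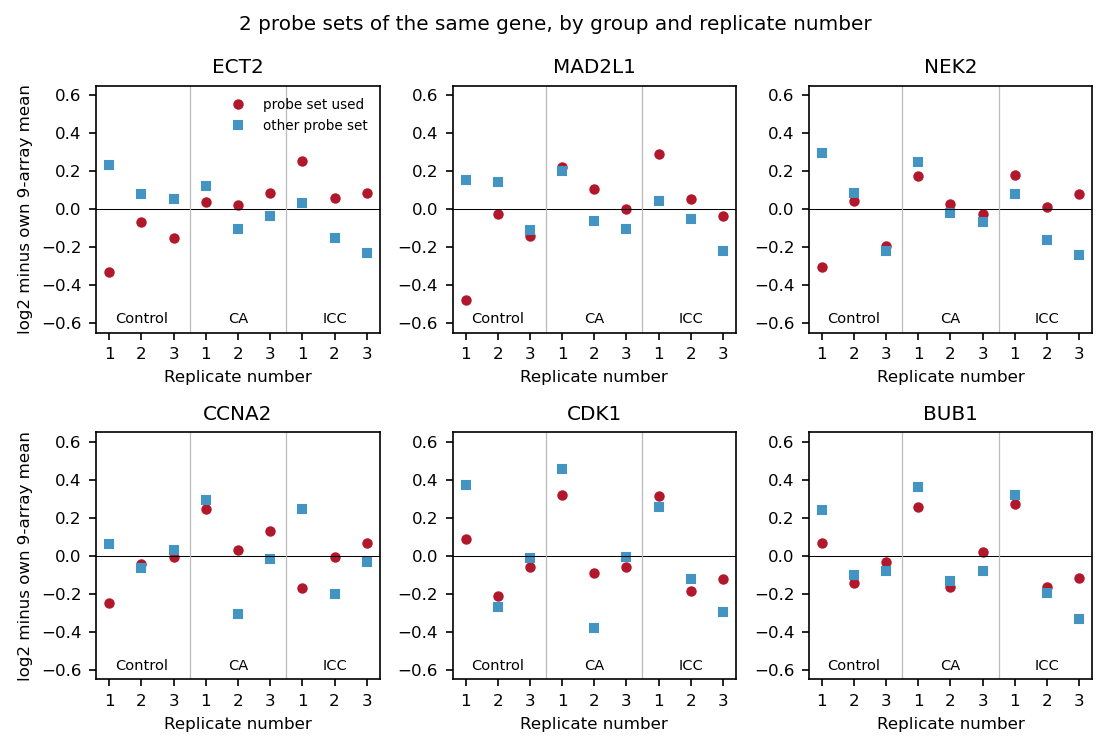
Log2 intensity minus the probe set's own mean over 9 arrays (vertical axis) for each array, by group and replicate number, of the probe set used (red circles) and the brightest other one (blue squares) of 6 genes. In the 4 genes that led the treatment comparisons (ECT2, MAD2L1, NEK2, CCNA2) the red circle of Control 1 is below 0 and the blue square above it, while in CDK1 and BUB1, shown as 2 genes that passed between replicate numbers, both put number 1 highest in each group.

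ICC and CA were set against each other at unlike doses (7 and 1.68 µg/mL), so the values stand side by side. The largest moderated t belonged to CCNA2, at -0.17 ± 0.0947 (adjusted p 1, limma), with ICC lower in 3 of 3 pairs. Next came KIF4A, a chromosome-bound kinesin, at -0.11 ± 0.0926, also lower in 3 of 3 pairs, and PLK1 at +0.12 ± 0.110, higher in 3 of 3 (adjusted p 1 for both). KIF4A read 10.15, 10.07 and 9.95 in Control, 10.25, 10.06 and 10.02 in CA and 10.15, 9.95 and 9.91 in ICC, and its groups overlapped. Without ICC 1 the PLK1 difference was -0.00. Over 18 alternatives the adjusted p was 0.81 to 1 for CCNA2, 0.824 to 1 for KIF4A and 0.85 to 1 for PLK1.

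Same-numbered arrays gave a different picture in number 1 than in the others. In ICC 1 minus Control 1 the median over the 40 genes was +0.17 log2, with 35 of 40 above 0 (all genes +0.05), from -0.15 in CENPE to +0.77 in MAD2L1. In numbers 2 and 3 it was -0.03 with 16 above 0 and -0.01 with 17 above 0 (all genes +0.01 in both). CA minus Control gave +0.16 with 36 above 0, -0.08 with 12 above 0 and +0.04 with 27 above 0 in numbers 1, 2 and 3 (all genes 0 in each). Each pair is 1 array against 1, with no replicate. Leaving out ICC 1 turned the median over the genes in ICC from +0.05 to -0.04, and leaving out CA 1 turned that in CA from +0.03 to -0.06. Without ICC 2 the median in ICC was +0.11, without ICC 3 +0.09 and without Control 1 +0.09. Centring each array on its median over all genes gave +0.01 in ICC. In CA the median was +0.12 without CA 2, +0.06 without Control 1, +0.02 without Control 2 and +0.01 without Control 3.

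**Figure D3:**
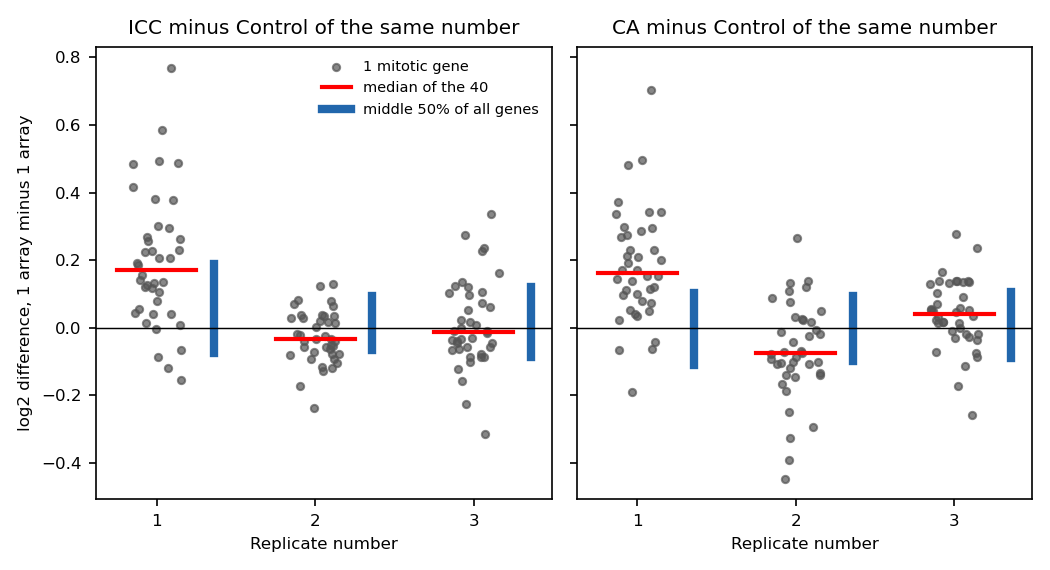
Log2 difference of 1 treated array from the Control array of the same replicate number (vertical axis), for the 40 mitotic genes (grey points, red line at their median), with the middle 50% of all genes as a blue bar. In number 1 the median was +0.17 in ICC and +0.16 in CA, and in numbers 2 and 3 it was between -0.08 and +0.04.

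Between replicate numbers the genes differed more. Each number has 1 array of each group, and the test took the group into account. Number 2 was lower than number 1 in 7 of the 40 genes (CDK1, CDC25C, AURKB, BUB1, UBE2C, NDC80 and NUSAP1), where 3.1% of all genes were called lower, and higher in 0, where 0.743% were. Number 3 was lower than number 1 in 5 (CDK1, AURKB, UBE2C, KIF2C and NDC80; background 3.33%) and higher in 0 (1.22%). At an unadjusted p under 0.05, 24 of the 40 were lower in number 2 against 1 (12.6% of all genes) and 0 higher (4.94%), and 16 were lower in number 3 against 1 (13.4%) and 0 higher (5.74%). Between numbers 3 and 2, 0 genes were called higher (0.799%) or lower (0.936%), with 2 higher (6.99%) and 0 lower (7.39%) at an unadjusted p under 0.05. The median over the 40 genes was -0.21 log2 in number 2 against 1, with 35 below 0 (all genes -0.03), and -0.17 in number 3 against 1, with 37 below 0 (all genes -0.03). In number 3 against 2 it was +0.06, with 30 above 0 (all genes +0.00). The first 2 comparisons share the number 1 arrays.

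**Figure D4:**
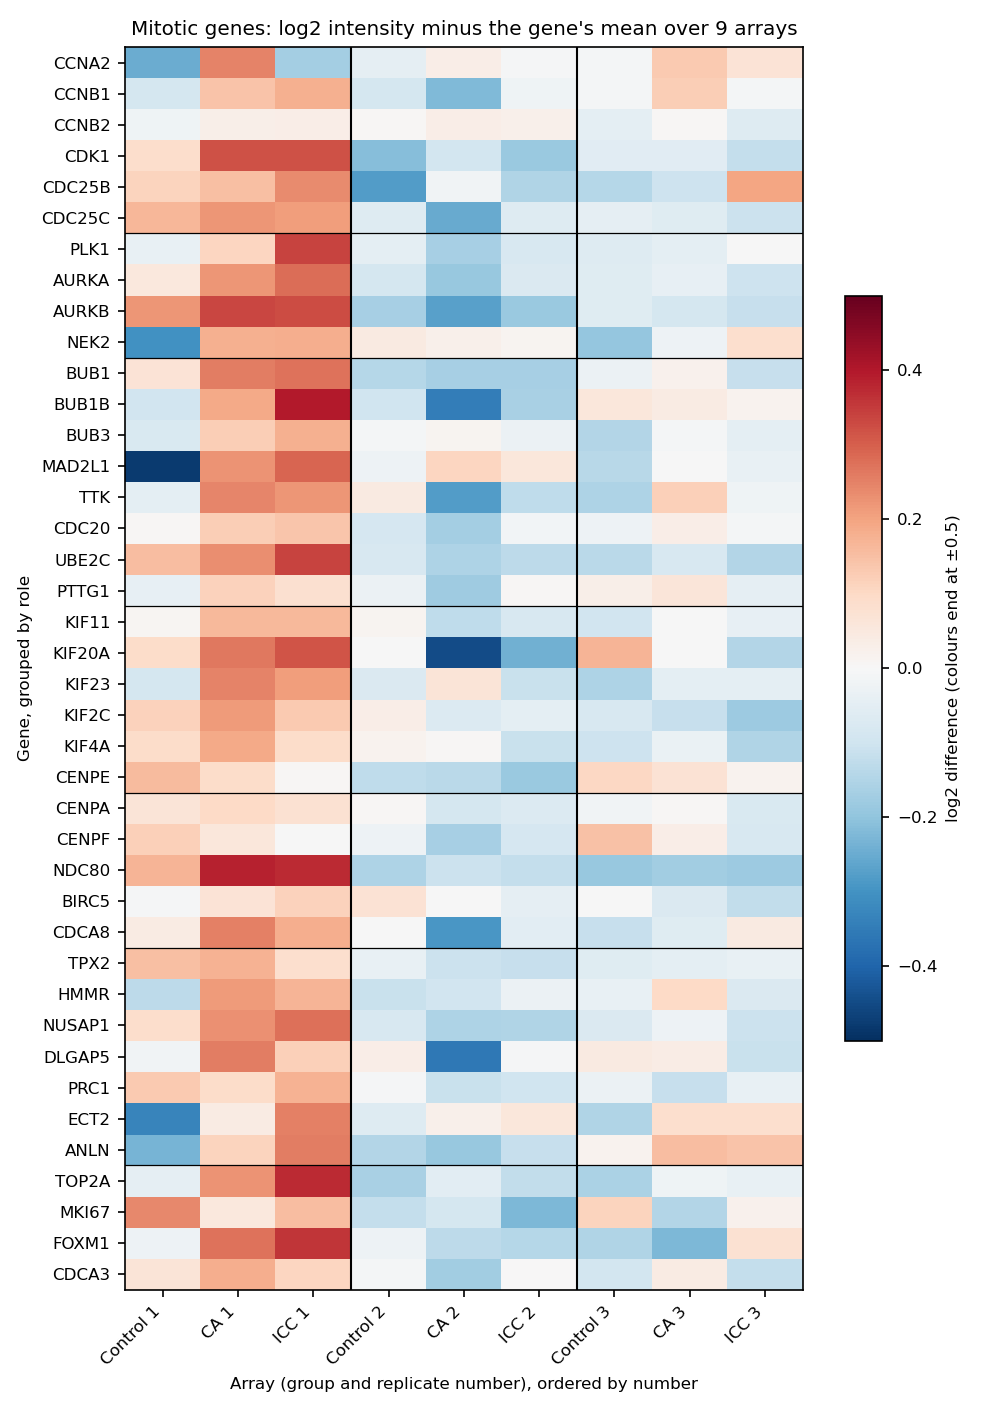
Log2 intensity of each mitotic gene minus its mean over 9 arrays (colour, from blue below to red above), with the arrays ordered by replicate number and the genes by role. CA 1 and ICC 1 are red in nearly every row, with 40 and 38 genes above their own mean, and Control 1 in 22 of 40.

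Number 1 was the highest array in all 3 groups in 20 of the 40 genes (12.8% of all genes) and the lowest in 0 (4.75%). Number 2 was the highest in 0 (4.34%) and the lowest in 10 (7.83%), and number 3 was the highest in 0 (5.66%) and the lowest in 5 (9.08%). The numbers lay closer together within Control. There the median of number 2 minus 1 was -0.07 with 24 of 40 genes below 0, against -0.29 with 39 below 0 in CA and -0.24 with 39 in ICC. Over all genes these medians were -0.01, -0.01 and -0.05, with 52.1%, 51.9% and 62.3% below 0. For number 3 minus 1 the medians were -0.09 (27 below 0), -0.21 (38) and -0.23 (38), and over all genes -0.02 (53.4% below 0), 0.00 (49.4%) and -0.06 (63.7%). Each is 1 array against 1, and the difference between the groups was not tested.

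AURKB had the largest moderated t between numbers 2 and 1. It read 9.23, 9.34 and 9.34 in replicate number 1, 8.84, 8.74 and 8.82 in number 2 and 8.95, 8.92 and 8.89 in number 3, in the order Control, CA, ICC. The number 1 arrays were apart from all others, number 2 was lowest in each group, and number 2 stood at -0.50 ± 0.0692 log2 against number 1 (SE, n = 3 arrays a number, 1.42-fold, adjusted p 0.00423, limma). Number 3 stood at -0.38 ± 0.0692 (adjusted p 0.0139). NDC80, the subunit of the kinetochore complex that grips microtubules, read 10.27, 10.48 and 10.47 in replicate number 1, 9.94, 9.99 and 9.98 in number 2 and 9.91, 9.92 and 9.91 in number 3. The 3 arrays of number 1 were again apart, at differences of -0.44 ± 0.0690 (adjusted p 0.00936) and -0.49 ± 0.0690 (adjusted p 0.00373).

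CDK1 read 11.60, 11.83 and 11.83 in replicate number 1, 11.30, 11.42 and 11.33 in number 2 and 11.46, 11.46 and 11.40 in number 3. Number 1 was highest in each group and did not overlap the other numbers, at -0.40 ± 0.0737 for number 2 (1.32-fold, adjusted p 0.0176) and -0.32 ± 0.0737 for number 3 (adjusted p 0.0374). UBE2C, the ubiquitin-conjugating enzyme of the APC/C, read 11.40, 11.48 and 11.59 in replicate number 1, 11.17, 11.09 and 11.11 in number 2 and 11.11, 11.17 and 11.10 in number 3. The number 1 arrays were again the highest, and the other numbers overlapped. The difference was -0.36 ± 0.0715 for both numbers, with adjusted p of 0.0239 and 0.0209. BUB1, a checkpoint kinase of the kinetochore, fell by 0.36 in number 2 (adjusted p 0.0312) and stood at -0.24 in number 3 (0.106). CDC25C fell by 0.32 (adjusted p 0.0389) and NUSAP1, a protein that bundles spindle microtubules, by 0.33 (adjusted p 0.0396) in number 2. KIF2C, a kinesin that takes microtubules apart, fell by 0.28 in number 3 (adjusted p 0.047).

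**Figure D5:**
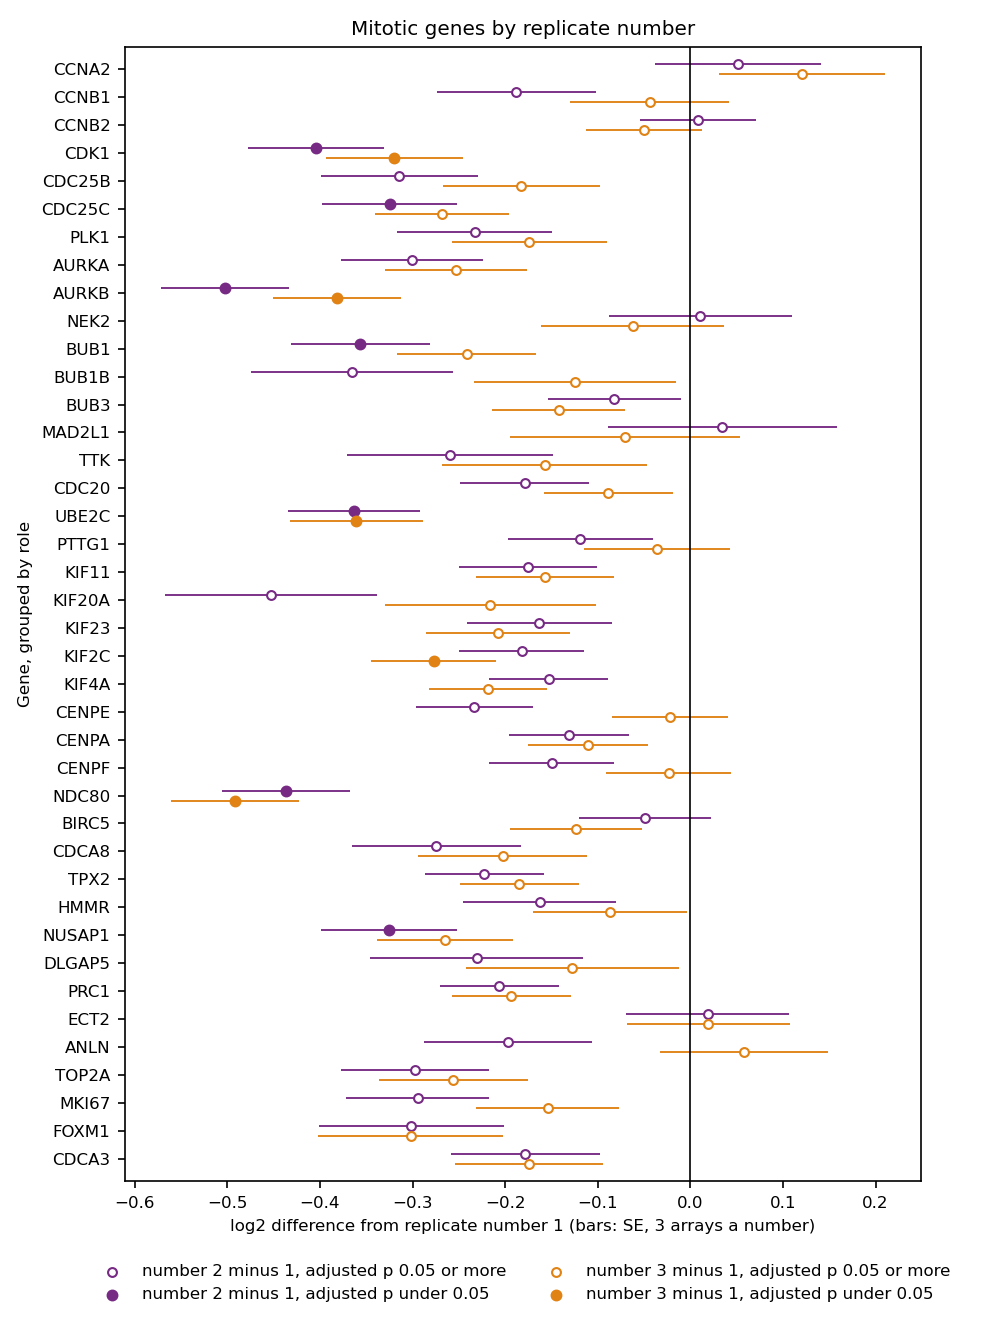
Difference of replicate number 2 (purple) and number 3 (orange) from number 1 on the log2 scale (horizontal axis), with genes grouped by role; points are means of 3 arrays a number, bars are the SE, and filled points have an adjusted p under 0.05. Filled points number 7 in purple and 5 in orange and all lie left of 0, while CCNA2, ECT2, NEK2 and MAD2L1 have a purple point just right of 0.

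On the probe sets used, most other members of each role had the same sign without passing. The exception was number 2 among the cyclins and CDC25B, where the signs were mixed. Among the kinases, PLK1 stood at -0.23 and -0.17 in numbers 2 and 3 (adjusted p 0.171 and 0.293) and AURKA at -0.30 and -0.25 (0.0618 and 0.0988). All 6 kinesins were below 0 in both, from -0.45 in KIF20A (adjusted p 0.0594) to -0.15 in KIF4A for number 2. The 5 centromere, kinetochore and passenger complex genes had medians of -0.15 and -0.12. TOP2A stood at -0.30 and -0.26, MKI67 at -0.29 and -0.15, and FOXM1 at -0.30 in both, with adjusted p from 0.0669 to 0.312. In numbers 2 and 3 respectively, TPX2 stood at -0.22 and -0.18, PRC1 at -0.21 and -0.19, DLGAP5 at -0.23 and -0.13, HMMR at -0.16 and -0.09 and CDCA3 at -0.18 and -0.17. Among the checkpoint genes TTK stood at -0.26 and -0.16, CDC20 at -0.18 and -0.09, PTTG1 at -0.12 and -0.04 and BUB3 at -0.08 and -0.14. CDCA8 stood at -0.27 and -0.20, CENPA at -0.13 and -0.11 and BIRC5 at -0.05 and -0.12. CDC25B stood at -0.31 and -0.18 and ANLN at -0.20 and +0.06. ECT2 (+0.02 and +0.02), NEK2 (+0.01 and -0.06) and MAD2L1 (+0.03 and -0.07) were near 0 on the probe sets used, and their other probe sets are given below. Of the cyclins, CCNB1 was at -0.19 and -0.04, CCNB2 at +0.01 and -0.05 and CCNA2 at +0.05 and +0.12. CCNB1 turned to +0.02 in number 3 when arrays were centred on their medians, and to +0.03 without ICC 3.

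The other probe sets mostly had the sign of the one used here: 33 of 42 in number 2 against 1, 36 in number 3 against 1 and 31 in number 3 against 2. With every probe set tested singly, 13 of 82 passed in number 2 against 1, in 10 genes, where 1.98% of all probe sets did, and 12 in number 3 against 1, in 11 genes (4.55%). Between numbers 3 and 2, 0 did (0.965%). In number 2 against 1 another TOP2A probe set passed at -0.51 (adjusted p 0.00926 among single probe sets), and another of MKI67 at -0.34 (0.0346). The remaining probe sets of these genes were below 0 without passing. The other CCNA2 probe set stood at -0.39 and -0.21 where the one used stood at +0.05 and +0.12. The other NEK2 probe set stood at -0.24 and, in number 3, at -0.38 (adjusted p 0.0191 among single probe sets). In number 2 against 1 the other ECT2 probe sets stood at -0.19 and -0.80, the second of them dim (adjusted p 0.047 among single probe sets). Those of MAD2L1 stood at -0.12 and +0.03. In number 3 both of these ECT2 probe sets and the first of MAD2L1 were below number 1 in each group, and the second of MAD2L1 was mixed.

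Few of these calls held whichever 1 array was left out. AURKB in number 2 (adjusted p 0.00212 to 0.0484) and NDC80 in number 3 (0.0021 to 0.036) passed under all 18 alternatives run. In number 2 against 1, leaving out CA 1, ICC 1 or ICC 2 left 1 of the 7 calls each and Control 2 left 2. Without CA 2 there were 3 calls, 2 of them among the 7. Of the 7, only CDC25C was lost without Control 1, only NUSAP1 without ICC 3, and only these 2 genes without Control 3 or CA 3. Of the 5 called in number 3, leaving out Control 3, CA 1, CA 3, ICC 1 or ICC 3 left 1 each, and Control 2 or ICC 2 left 3 each. All 5 held without CA 2, and only KIF2C was lost without Control 1. Without the 3 Control arrays, 1 gene was called in each comparison. Testing only the 9888 genes above the median gene gave 15 and 9 calls. The share of all genes called in that run is not given, so a change particular to the mitotic genes cannot be read from it. The CDC25C call was lost, at +0.05, when probe sets with the suffix _x_at or _s_at were dropped, which leaves a dim one.

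Between numbers 3 and 2 the largest moderated t belonged to CENPE, ANLN and BUB1B. CENPE read 9.51, 9.45 and 9.36 in replicate number 1, 9.23, 9.22 and 9.17 in number 2 and 9.46, 9.43 and 9.37 in number 3, with number 2 lowest in each group and no overlap, at +0.21 ± 0.0628 (adjusted p 0.139, limma). ANLN, anillin of the cleavage furrow, read 10.88, 11.22 and 11.36 in replicate number 1, 10.96, 10.92 and 10.99 in number 2 and 11.13, 11.26 and 11.25 in number 3, at +0.25 ± 0.0906 (adjusted p 0.213). The number 3 arrays were all above number 2, and Control 1 was the lowest of the 9. BUB1B, a checkpoint inhibitor of the APC/C, read 10.97, 11.26 and 11.47 in replicate number 1, 10.97, 10.72 and 10.91 in number 2 and 11.13, 11.11 and 11.09 in number 3, at +0.24 ± 0.109 (adjusted p 0.351), with number 2 lowest in each group.

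Other mitotic genes, in 5 lists that hold none of the 40, gave 0 calls between treatments and Control among 99 measured of 101. At an unadjusted p under 0.05, 4 were higher (5.83% of all genes) and 3 lower (1.9%) in ICC. In CA 3 were higher (2.55%) and 0 lower (1.91%). In number 2 against 1, 18 of the 99 were called lower (3.1% of all genes) and 0 higher (0.743%), with a median of -0.15 and 82 below 0. In number 3 against 1, 14 were called lower (3.33%) and 0 higher (1.22%), with a median of -0.15 and 81 below 0. Among them were CENPI of the inner kinetochore at -0.68 in number 2 (adjusted p 0.00445), SKA3 of the outer kinetochore at -0.52 in number 3 (0.00447), and separase (ESPL1), which cuts cohesin, at -0.46 and -0.34 (0.00471 and 0.0169). FBXO5, an inhibitor of the APC/C, stood at -0.35 and -0.42 (adjusted p 0.0249 and 0.00918), and the kinase MELK at -0.36 in both (0.0145 and 0.0118). In number 3 against 2, 2 of the 99 were called lower (0.936% of all genes), ANAPC10 at -0.36 (adjusted p 0.0455) and STAG1 at -0.36 (0.0394), and 0 higher (0.799%).

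Of 28 measured genes of G1/S and DNA replication, 4 were called lower in number 2 against 1 (3.1% of all genes), among them MCM10 at -0.37 (adjusted p 0.0235). The median over the 28 was -0.18, with 27 below 0. In number 3 against 1, 1 was called lower (3.33%), CHAF1B at -0.39 (0.0074). In number 3 against 2, 1 was called higher (0.799% of all genes), MCM4, a helicase subunit, at +0.34 (adjusted p 0.041). A list of p53 targets, most of them known for restraining the cycle, had 11 measured genes, and the activity of p53 itself was not measured. Of the 11, 1 was called higher in number 2 against 1 (0.743% of all genes), GADD45A at +0.54 (adjusted p 0.0344). In number 3 against 1, 2 were called lower (3.33% of all genes), the CDK inhibitor CDKN1A at -1.36 (adjusted p 0.00797) and GADD45A at -0.51 (0.0363). In number 3 against 2, 3 were called lower (0.936% of all genes), SESN2 at -1.69 (adjusted p 0.0303), CDKN1A at -1.48 (0.0193) and GADD45A at -1.04 (0.0074). In both lists 0 genes were called in a treatment comparison. At an unadjusted p under 0.05, 1 gene of G1/S was lower in ICC (1.9% of all genes) and 1 higher in CA (2.55%), and 0 of the p53 targets differed in either.

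Other measures were also compared between replicate numbers. Summed intensity of the 13 colon epithelium markers was 57100 to 58700 in number 1, 58900 to 59400 in number 2 and 60700 to 62600 in number 3. Their median difference in number 2 against 1 was -0.02, with 6 above 0 and 7 below. In number 3 against 1 it was +0.15, with 11 above 0 and 2 below, and in number 3 against 2 +0.12, with 9 above and 4 below. Of the 13, LGALS4 was called higher in number 2 against 1 at +0.67 (adjusted p 0.00174), where 0.743% of all genes were. In number 3 against 2, LGALS4 was called lower at -0.44 (0.936% of all genes) and CLDN3 higher at +0.46 (0.799%), with an adjusted p of 0.0287 for both. Summed intensity of the 5 measured leukocyte markers was 386 to 521, 308 to 378 and 305 to 341 in numbers 1, 2 and 3. CD14 and LAPTM5 were called lower in numbers 2 and 3 against 1 (3.1% and 3.33% of all genes), and the other 3 were not called. Over the 5, the median difference in number 2 against 1 was +0.01, with 3 above 0 and 2 below. In number 3 against 1 it was -0.05, with 2 above 0 and 3 below. The 3' minus 5' log2 difference of the ACTB control probe sets, a sign of RNA integrity, was 0.163, 0.305 and 0.236 in the number 1 arrays of Control, CA and ICC. It was 0.283, 0.352 and 0.396 in number 2 and 0.324, 0.292 and 0.355 in number 3, lowest in Control 1. The same difference for the GAPDH control probe sets was smaller, from -0.0387 in Control 1 to 0.0934 in ICC 3. The part of these in the differences of the mitotic genes was not tested. Between treatments, the summed intensity of the 8 fibroblast markers was 367 to 385 in Control, 392 to 426 in CA and 410 to 439 in ICC, and that of the 5 endothelial markers 141 to 151, 142 to 155 and 152 to 169. Only 1 of the 8 and 0 of the 5 were above the median gene, so low signal limits these sums and they do not show such cells. Of these markers 0 were called in a treatment comparison, and their part was not tested either.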

How the data were processed

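The authors deposited 1 table of linear intensity for 54675 probe sets and 9 arrays, after RMA normalization, as the submitters' processing notes state. The series text names GeneSpring GX for analysis. RMA's version is not given in the sources used here. Per the labels' protocols, total RNA carried a biotin label. Values were put on the log2 scale here. Probe sets with several or no gene symbols and Affymetrix controls were left out, and each of 19775 genes was read from its brightest probe set.

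The 3 groups were compared with limma 3.58.1 in R 4.3.3 over 9 arrays, without the replicate number. Replicate numbers were compared with the group in the model. P-values were adjusted over all genes (Benjamini-Hochberg), and genes with an adjusted p under 0.05 were called. The fit was tested on simulated data. Their noise was independent between arrays, so that test does not cover the resemblance of same-numbered arrays given next. After group means were removed, same-numbered arrays correlated at 0.327 to 0.518 over genes (9 pairs) and others at -0.436 to 0.0839 (18 pairs), so the numbers pair the arrays by resemblance in the data, and a fit with the number as a block was run as well.

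All 40 genes were described by role. Values in every array are given for CCNB1, CDK1, PLK1, AURKA, FOXM1, MKI67 and TOP2A and for the 3 genes with the largest moderated t in each comparison, and at most 3 genes of another list per comparison by smallest p. The genes, lists and tests were chosen with earlier results of these data known. Alternatives covered scaling, dim genes, an offset, the probe set per gene, array weights and left-out arrays. Promoter windows are from RefSeq, and matplotlib 3.10.9 (Python 3.11.15) drew the figures.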

Additional observations from a re-analysis of the deposited data

How the results depend on the processing

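With the replicate number as a block, 0 mitotic genes were called in each treatment comparison, as without it, and the medians stayed at 0.0519 in ICC and 0.0320 in CA, since the pairs are complete. The block changed no call. Leaving out 1 array moved the median between -0.0403 and 0.1107 in ICC, -0.0563 and 0.1225 in CA, -0.0798 and 0.0939 in ICC against CA, and -0.0037 and 0.0986 in number 3 against 2, and the calls between 1 and 9 (number 2 against 1) and between 1 and 5 (number 3 against 1). In ICC against CA the median was -0.0442 after centring and -0.0472 with array weights. Calls in numbers 2 and 3 against 1 were 4 and 3 after centring, 15 and 9 without dim genes, 12 and 9 with 16 added before the log, and 1 and 1 without the 3 Control arrays, an alternative chosen after seeing the data. With array weights number 2 had 13. Shares of all genes called under these alternatives are not given, so these counts alone do not show a change particular to the mitotic genes.

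Differences from Control were followed singly only for CCNB1, CDK1, PLK1, AURKA, FOXM1, MKI67, TOP2A and the 3 genes with the largest moderated t. Among these, CDK1 (-0.0217) and AURKA (-0.0875) reversed in ICC with the mean of probe sets. AURKA (-0.2745 in ICC) and MAD2L1 (-0.1381 in ICC, -0.0487 in CA) reversed when _x_at and _s_at probe sets were dropped. Of these differences 0 were called, and the other genes were not followed in this way. CDC25C turned to 0.0501 in number 2 against 1 without those probe sets, and CCNB1 to 0.0169 in number 3 against 1 after centring. Leaving out 1 array gave, in ICC, CDK1 -0.0916 to 0.1589, AURKA -0.0565 to 0.1358 and MKI67 -0.1908 to 0.0126, and in CA, FOXM1 -0.1117 to 0.1375, CDK1 -0.0136 to 0.1918, PLK1 -0.0580 to 0.0787 and AURKA -0.0836 to 0.1224. It gave -0.0037 to 0.2049 for PLK1 in ICC against CA and -0.1207 to 0.0253 for CCNB1 in number 3 against 1. The cause was not tested. The probe sets used for the 40 genes were bright. The values of AURKA and CDC25C without _x_at and _s_at probe sets come from dim ones, with mean log2 intensities of 5.24 and 4.96 against 6.46 for the median gene, so low signal limits them. Those of MAD2L1 come from a bright one, with a mean log2 intensity of 11.07.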
